A study of Mus musculus with 36 samples.

Results

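Otx2, Pou3f1, Zic2 and Zic5, transcription factor genes used as markers of formative and primed pluripotency, and the cadherin genes Cdh1 and Cdh2 were followed by symbol through a count table of 55335 genes. Each of the 6 symbols matched 1 row, and all 6 passed the filter on low counts. Polyadenylated RNA came from mouse embryonic stem cells under 3 treatments, BPK25, IAA and DMSO, at days 0, 2, 4 and 6, with 3 libraries in each of the 12 groups. The labels give BPK25 as a code name only and identify IAA as auxin, a plant hormone used in engineered cells to degrade a protein that bears an auxin-inducible degron. DMSO is a common solvent for small molecules. The title given to the series names NuRD, a complex that remodels nucleosomes and deacetylates histones, and chromatin architecture at sites bound by CTCF. Groups at day 0 also carry a treatment label. The labels used here give no genotype, tagged protein, dose, or clone, and do not say what the days count from. All groups share the labelled cell type and a growth protocol with knockout serum replacement and LIF, typically on gelatin with irradiated mouse embryonic fibroblasts as feeders, whose RNA can enter a library. Nothing states that the 3 libraries of a group came from separate cultures. Every p-value here therefore reflects the spread among libraries alone, and that spread may be technical.

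Embryonic stem cells kept with LIF sit near a naive state of pluripotency, and on leaving it they pass through a formative state towards the primed state of the epiblast after implantation. Otx2 encodes a homeodomain factor that redirects Oct4 to new enhancers during this step, and Pou3f1 (Oct6) encodes a POU factor of the epiblast and of neural progenitors. Zic2 and Zic5 encode zinc finger factors of the early embryo, and Zic2 also binds enhancers in embryonic stem cells. Cdh1 encodes E-cadherin, which joins epithelial cells and embryonic stem cells, and Cdh2 encodes N-cadherin of neural and mesodermal cells. Exchange of the first cadherin for the second accompanies gastrulation and neural induction.

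In the GENCODE M21 annotation on GRCm38, Otx2 (ENSMUSG00000021848.16) lay at chr14:48657677-48673819 on the minus strand, and Pou3f1 (ENSMUSG00000090125.3) at chr4:124656807-124660655 on the plus strand. Zic2 (ENSMUSG00000061524.8) lay at chr14:122475435-122479852 on the plus strand. Zic5 (ENSMUSG00000041703.7) lay at chr14:122456795-122465677 on the minus strand, so that this pair is divergently transcribed with annotated starts 9.76 kb apart and 1 gene model between them.  

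Promoter windows are described for 2 of the 6 genes, and those of the other genes were not examined. The 250 bases before 1 RefSeq start of Otx2 and before that of Zic5 (GRCm38.p6, minus strand, written 5′ to 3′) are shown. Capitals mark CpG dinucleotides. The Otx2 window is chr14:48667645-48667894 and the Zic5 window is chr14:122465659-122465908. This Otx2 window and the other RefSeq windows of Otx2 lie inside the annotated span of the gene. The Zic5 window includes 19 bases of annotated Zic5 exon.
Otx2: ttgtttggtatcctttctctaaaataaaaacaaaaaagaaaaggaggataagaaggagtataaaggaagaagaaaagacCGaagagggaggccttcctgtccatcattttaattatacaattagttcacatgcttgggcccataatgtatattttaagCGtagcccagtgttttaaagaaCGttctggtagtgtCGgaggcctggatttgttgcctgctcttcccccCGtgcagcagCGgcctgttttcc
Zic5: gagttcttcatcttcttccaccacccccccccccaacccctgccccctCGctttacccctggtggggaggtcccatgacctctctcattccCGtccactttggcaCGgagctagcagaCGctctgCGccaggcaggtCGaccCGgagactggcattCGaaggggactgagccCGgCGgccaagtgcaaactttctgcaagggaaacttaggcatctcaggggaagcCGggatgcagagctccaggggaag
The Otx2 window held 6 CpG at 42.0% GC, equal to the median of 6 over 32851 RefSeq windows. That of Zic5 held 11 CpG at 62.4% GC, and 64.4% of windows held fewer. Both were searched, with the 50 bases after the start, on both strands for 3 motifs: TAATCC bound by OTX homeodomains, ATGCAAAT bound by POU factors, and the E-box CACCTG bound by Snail and Zeb repressors. None of these letters occurred in either window. Of the other 3 RefSeq windows of Otx2, 1 held the OTX letters once, and the POU and E-box letters occurred in none of the 3. The core of the CTCF motif, searched by the same rule, occurred in 0 of these 5 windows and in 2.43% of all windows. Among all windows of 300 bases, 7.06% held the OTX letters, 1.74% the POU letters and 20.2% the E-box.

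Library totals ran from 6621288 to 16497799 counts. Levels are in CPM, which sets read counts relative to the TMM-scaled total of their library, with the SD over 3 libraries after the sign ±. Changes are log2 fold changes from 1 edgeR quasi-likelihood fit of all 36 libraries, followed by an approximate standard error and a Benjamini-Hochberg adjusted p over 17394 genes, with a call below 0.05. Markers of the labelled cell type were present in every group: the summed level of Pou5f1, Sox2, Nanog, Zfp42 and Esrrb averaged 1902 CPM in BPK25, 2714 CPM in IAA and 1864 CPM in DMSO at day 0. At day 6 the same sum was 537 CPM in BPK25, 419 CPM in IAA and 483 CPM in DMSO. Since RNA came from bulk cultures, fewer cells of a type and less RNA per cell cannot be told apart in any of the values here.

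Cdh1 was the most abundant of the 6 genes and Pou3f1 the least. Per kb of exon, in DMSO at day 0, Cdh1 reached 52.9 CPM, above 93.5% of tested genes with a length. On that scale Zic2 stood at 10.7 CPM, Zic5 at 10.1, Otx2 at 3.44, Cdh2 at 1.46 and Pou3f1 at 0.480 CPM. Pou3f1 had 2 to 32 counts in a library and exceeded 1 CPM in every library in 7 of the 12 groups. The 495 counts of Pou3f1 over all libraries limit what can be said of it. Overlapping gene models held few counts: the antisense model Gm2164 shares 330 exon bases with Pou3f1 and held 21 counts, and Otx2os1 shares 154 with Otx2 and held 38 counts, against 2505 for Otx2. No source used here gives the strand setting, and reads of antisense partners cannot be told apart from those of the gene.

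**Figure D1:**
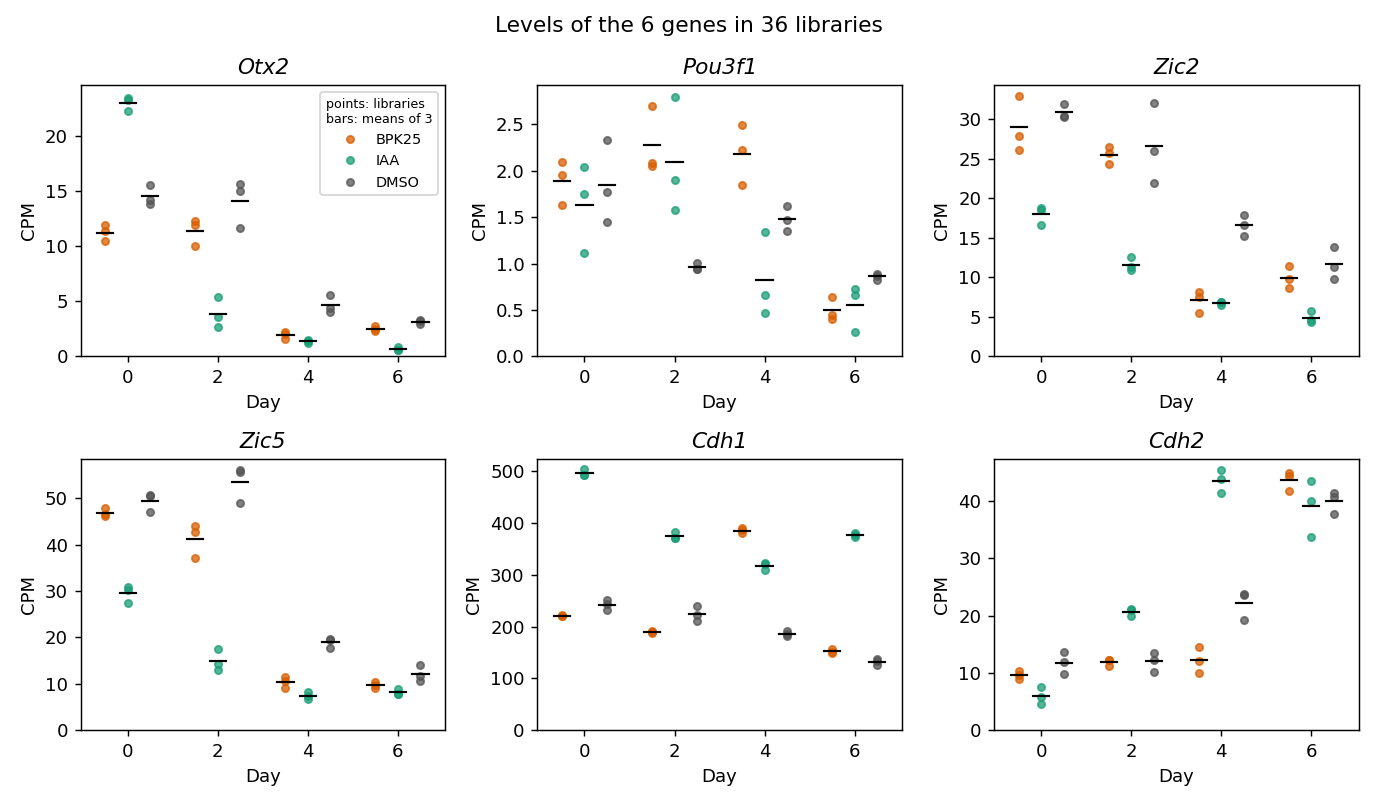
Levels of the 6 genes in CPM (linear axis from 0) by day, with 1 point for each of 36 libraries, a bar for the mean of 3, and BPK25, IAA and DMSO from left to right at each day. Otx2, Zic2 and Zic5 are lower at days 4 and 6 than at day 0 of the same treatment. Cdh1 is high in IAA at every day and in BPK25 at day 4. Cdh2 is high at day 6 in all treatments and in IAA at day 4.

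Over time in DMSO, the 4 formative and primed genes and Cdh1 fell and Cdh2 rose. Between day 2 and day 0, 0 of the 6 genes were called, where 5.44% of all tested genes were; 1 of the 6, Cdh1, would be called without the third DMSO library of day 2 (log2 fold change -0.16 by edgeR, adjusted p = 0.0376). At an unadjusted p under 0.05, 2 of the 6 would pass, Pou3f1 (-0.92 ± 0.35) and Cdh1 (-0.11 ± 0.04). By day 6, all 6 genes were called against day 0, 1 higher and 5 lower, where 62.7% of all tested genes were called. The falls by day 6 came to -2.21 ± 0.15 for Otx2, -1.07 ± 0.33 for Pou3f1, -1.37 ± 0.11 for Zic2 and -2.04 ± 0.09 for Zic5 on the log2 scale. Cdh1 fell by 0.87 ± 0.04 and Cdh2 rose by 1.76 ± 0.11, with edgeR adjusted p of 1.54e-23 for Cdh1 and 1.97e-19 for Cdh2. The genes named for the formative and primed states were thus lower, not higher, at the end of the course. All 6 were also called in the same directions at day 6 against day 0 in BPK25 (63.4% of tested genes called) and in IAA (70.9% called).

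Step by step, the DMSO cultures had 5 of the 6 genes called at day 4 against day 0 (50.3% of tested genes), 5 at day 4 against day 2 (51.1%) and 5 at day 6 against day 4 (36%), Pou3f1 being the exception each time. BPK25 cultures had 1 called at day 2 against day 0, Cdh1 (4.88%), 4 at day 4 against day 2 (65.1%) and 4 at day 6 against day 4 (55.4%), and 5 at day 4 against day 0 (64.9%). IAA cultures had 5 called already at day 2 against day 0 (59.5%), 6 at day 4 against day 2 (44.5%), 6 at day 4 against day 0 (69.4%) and 3 at day 6 against day 4 (37.9%). Some of these calls rested on single libraries. Cdh2 in BPK25 at day 4 against day 0 (0.31 ± 0.13) was not called without the first or second library of day 0 (0.31 and 0.26) or the second or the third of day 4 (0.19 and 0.30). Pou3f1 in IAA at day 4 against day 0 (-0.91 ± 0.33) was not called without the first or the third library of day 0 (-0.83 and -0.75) or the second of day 4 (-0.66). At day 6 against day 4, Otx2 in DMSO (-0.54 ± 0.19) was not called without the third library of day 4 (-0.42) or of day 6 (-0.51). Otx2 in IAA (-1.01 ± 0.37) was not called without the first or second library of day 4 (-0.95 and -1.01) or the first or the third of day 6 (-0.87 and -0.94). Zic2 in IAA (-0.45 ± 0.18) kept its call only without the first library of day 6, with values of -0.48 to -0.38 without any other library, and Cdh2 in IAA (-0.15 ± 0.08) gained one without the third library of day 6 (-0.23).

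In BPK25 against DMSO of the same day, 5 of the 6 genes passed the test on day 4 and from 1 to 3 of them on the other days. At day 0 it had 0 genes higher (3.32% of all tested genes were) and 2 lower (4.58%), for 7.90% of tested genes called in either direction. Of the lower calls of day 0, that of Otx2 was lost without any 1 of the 6 libraries and that of Cdh1 without any 1 of 5 of them. At day 2, BPK25 had 1 gene higher (6.4%) and 2 lower (7.12%), with 13.5% of tested genes called. At day 4 it had 1 higher (26.2%) and 4 lower (26.8%), with 53.0% called, and at day 6 it had 1 higher (4.01%) and 0 lower (3.08%), with 7.09% called. IAA had 2 genes higher (21.3%) and 3 lower (23.2%) at day 0, with 44.5% of tested genes called, and 3 higher (27.5%) and 3 lower (27.9%) at day 2, with 55.4% called. At day 4, IAA had 2 higher and 4 lower (25.9% of tested genes in each direction, 51.9% called), and at day 6 it had 1 higher (30.6%) and 3 lower (30%), with 60.6% called. For each of the 6 genes the effect of either treatment differed between days in a joint test, which called 47.1% of tested genes for BPK25 and 70.1% for IAA. Cdh1 was called in all 8 comparisons, and higher in each of the 4 with IAA. The comparisons of a day share their DMSO libraries.

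**Figure D2:**
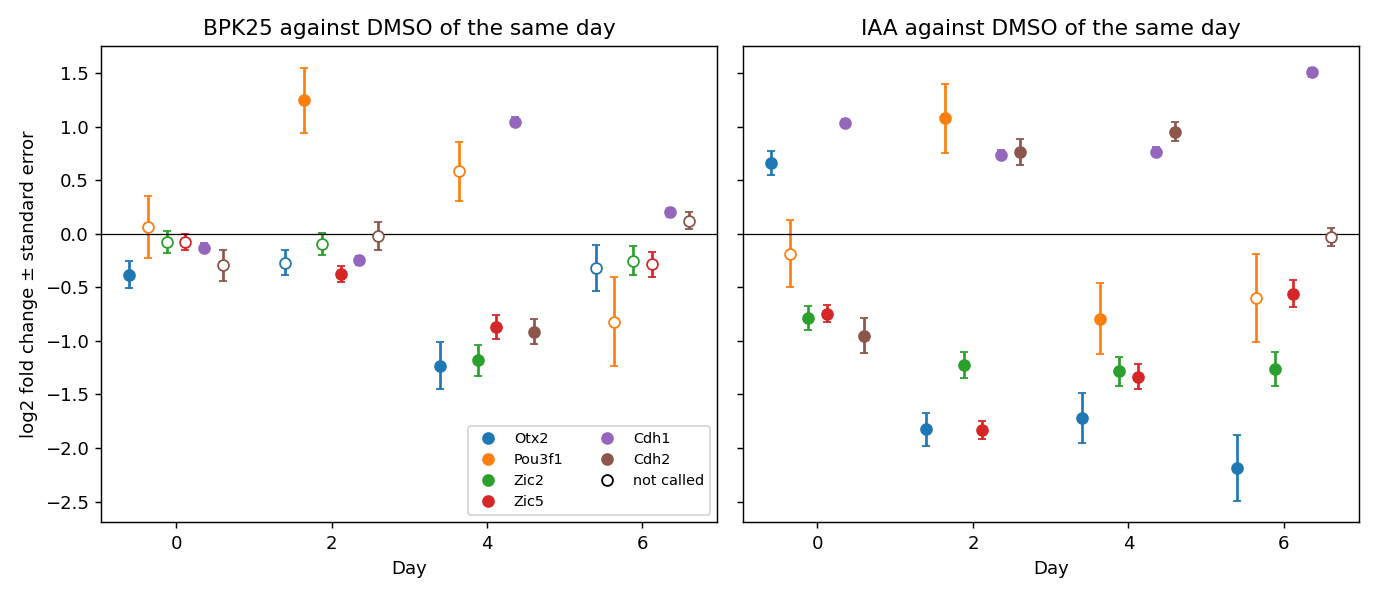
Log2 fold change of each gene against DMSO of the same day, with bars of 1 approximate standard error, for BPK25 on the left and IAA on the right. Filled points passed an adjusted p of 0.05. Under IAA, Otx2 changes sign between day 0 (0.66) and day 2 (-1.83) and Cdh1 lies above 0 at every day, while under BPK25 Otx2, Zic2, Zic5, Cdh1 and Cdh2 lie furthest from 0 at day 4 and Pou3f1 at day 2 (1.24).

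Otx2 had the widest range of the 6 genes, 33.1-fold between its highest and lowest group means, and both of those groups were IAA. At day 0 it stood at 23.5, 23.3 and 22.3 CPM in the IAA libraries and at 15.5, 14.2 and 13.8 CPM in the DMSO libraries. IAA was higher in all 3 libraries without overlap (0.66 ± 0.11, edgeR adjusted p = 3.01e-06). At day 2 the order was the opposite, with 3.56, 5.43 and 2.66 CPM in IAA and 15.6, 15.0 and 11.6 CPM in DMSO (-1.83 ± 0.15, edgeR adjusted p = 1.41e-14). The test of the difference between those days gave -2.49 ± 0.19 (edgeR adjusted p = 1.88e-15), in a comparison that called 44.0% of tested genes and all 6 of these. IAA stayed below DMSO at day 4, at 1.38 ± 0.118 CPM against 4.67 ± 0.817 CPM, and at day 6, at 0.694 ± 0.183 CPM against 3.13 ± 0.169 CPM (SD, n = 3 each). The day 6 difference of -2.19 ± 0.30 rests on 5 to 7 Otx2 counts in each IAA library. Within IAA, Otx2 was lower at day 2 than at day 0 by -2.56 ± 0.14. No such fall was called in DMSO over those days (-0.07 ± 0.12).

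Otx2 was lower in BPK25 at day 4, with 2.07, 2.24 and 1.57 CPM in BPK25 and 4.43, 4.00 and 5.58 CPM in DMSO. These groups did not overlap (-1.23 ± 0.22, edgeR adjusted p = 5.99e-06). At day 0 the difference was smaller, 11.2 ± 0.731 CPM in BPK25 and 14.5 ± 0.915 CPM in DMSO (SD, n = 3 each), and its adjusted p was 0.0480 (-0.38 ± 0.12). That call was lost without any 1 of the 6 libraries (-0.42 to -0.32). At day 2 the Otx2 value of -0.27 ± 0.12 was not called, though it was without the third DMSO library (-0.41), and neither was that at day 6 (-0.32 ± 0.21). Across the 12 groups, the order of Otx2 means ran from IAA at day 0 through DMSO at days 0 and 2 and BPK25 at days 2 and 0 down to IAA at days 4 and 6. DMSO at day 0, DMSO at day 2, BPK25 at day 2 and BPK25 at day 0 overlapped with their neighbours in that order.

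Pou3f1 was measured at low counts. At day 2 both treatments had more than DMSO: 2.05, 2.70 and 2.09 CPM in BPK25, 2.80, 1.58 and 1.90 CPM in IAA, and 1.00, 0.937 and 0.945 CPM in DMSO. Neither treated group overlapped with DMSO, and the changes were 1.24 ± 0.31 for BPK25 (edgeR adjusted p = 0.00355) and 1.08 ± 0.32 for IAA (edgeR adjusted p = 0.00402). The DMSO libraries of day 2 held 7, 7 and 10 Pou3f1 counts, with lower CPM than any DMSO library of day 0 or 4. At day 4, IAA stood at 0.656, 0.463 and 1.34 CPM and DMSO at 1.35, 1.62 and 1.47 CPM, without overlap (-0.79 ± 0.33, edgeR adjusted p = 0.0415). The call for IAA at day 4 ended without the first or second IAA library or without any 1 DMSO library, and the log2 fold change ran from -1.38 to -0.52. BPK25 at day 4, at 2.18 ± 0.324 CPM, was not called against DMSO, at 1.48 ± 0.137 CPM (SD, n = 3 each; 0.58 ± 0.28). Neither treatment was called at day 0 or day 6. Within BPK25, Pou3f1 was called at neither day 2 nor day 4 against day 0 and was 0.401, 0.644 and 0.443 CPM at day 6, lower than at day 4 by -2.17 ± 0.35 (edgeR adjusted p = 7.87e-07).

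Zic2 and Zic5, the divergent neighbours on chromosome 14, were both lower in IAA at all 4 days, though by different amounts at days 2 and 6. At day 0, Zic5 stood at 27.5, 30.9 and 30.3 CPM in IAA and 50.5, 47.1 and 50.8 CPM in DMSO (-0.74 ± 0.08, edgeR adjusted p = 2.01e-10). Zic2 stood at 16.6, 18.8 and 18.5 CPM in IAA and 31.9, 30.3 and 30.4 CPM in DMSO (-0.79 ± 0.11, edgeR adjusted p = 1.08e-07). All IAA libraries of day 0 lay below all DMSO libraries for both genes, in contrast to Otx2. The gap widened at day 2, where Zic5 had 13.1, 17.6 and 14.2 CPM in IAA and 55.6, 48.998 and 56.1 CPM in DMSO (-1.83 ± 0.09). The test of that widening gave -1.09 ± 0.12 for Zic5 (edgeR adjusted p = 3.35e-10). Zic2 had 10.9, 12.5 and 11.3 CPM in IAA and 21.9, 25.97 and 32.1 CPM in DMSO at day 2 (-1.22 ± 0.12). Its widening of -0.44 ± 0.17 passed the test (edgeR adjusted p = 0.0287), but not without the third DMSO library of day 2 (-0.26, adjusted p = 0.218) or without any 1 of 3 other libraries: the second DMSO library of day 0, the second IAA library of day 0 and the third IAA library of day 2 (-0.42 to -0.40). By day 6 Zic2 was at 4.91 ± 0.704 CPM in IAA and 11.6 ± 2.02 CPM in DMSO, and Zic5 at 8.14 ± 0.628 CPM in IAA and 12.2 ± 1.74 CPM in DMSO (SD, n = 3 each). The changes at day 6 were -1.26 ± 0.16 for Zic2 and -0.56 ± 0.13 for Zic5, so that of Zic5 was smaller than at day 2.

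Both Zic genes were lower in BPK25 than in DMSO at day 4. Zic2 had 8.21, 5.53 and 7.58 CPM in BPK25 and 15.2, 17.9 and 16.6 CPM in DMSO (-1.18 ± 0.14, edgeR adjusted p = 6.41e-10). Zic5 had 9.20, 10.5 and 11.5 CPM in BPK25 and 17.7, 19.5 and 19.7 CPM in DMSO (-0.87 ± 0.11, edgeR adjusted p = 4.94e-09). No BPK25 library reached a DMSO library for either gene at day 4. Zic5 was also lower at day 2, at 41.3 ± 3.73 CPM in BPK25 and 53.6 ± 3.96 CPM in DMSO (SD, n = 3 each; -0.37 ± 0.07), while Zic2 was not called there (-0.09 ± 0.10). At days 0 and 6 neither Zic gene was called under BPK25. After day 4, Zic2 in BPK25 was higher at day 6, at 9.97 ± 1.40 CPM, than at day 4, at 7.10 ± 1.40 CPM (0.46 ± 0.15, edgeR adjusted p = 0.00977), a call lost without the second BPK25 library of day 4 (0.35) or the first of day 6 (0.35).

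The ratio of Zic2 to Zic5 within a library does not depend on scaling between libraries. Per length, with 0.5 counts added, both genes were near equal at day 0, with mean log2 ratios of 0.06 in BPK25, 0.05 in IAA and 0.09 in DMSO. At day 2 the ratio was 0.40 ± 0.12 in IAA and -0.26 ± 0.28 in DMSO, and at day 6 it was 0.03 ± 0.28 in IAA and 0.69 ± 0.38 in DMSO (SD, n = 3 each). Those 2 of the 8 comparisons with DMSO had no overlap, with differences of 0.66 and -0.66 and opposite signs, each at an exact permutation p of 0.1, the smallest that 3 libraries against 3 can give. With labels permuted within days, the mean difference was 0.01 for IAA (exact permutation p = 0.958) and 0.01 for BPK25 (exact permutation p = 0.936). Reads shared between the genes are limited by sequence, as the longest run common to their transcripts was 26 bases.

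Cdh1 (ENSMUSG00000000303.12, chr8:106603351-106670246, plus strand) was higher in IAA than in DMSO at every day. At day 0 it had 492, 505 and 492 CPM in IAA and 243, 251 and 231 CPM in DMSO, about a doubling (1.03 ± 0.04, edgeR adjusted p = 1.49e-26). At day 6 it had 380, 373 and 376 CPM in IAA and 133, 126 and 138 CPM in DMSO (1.51 ± 0.04, edgeR adjusted p = 1.08e-33). The 2 groups lay far apart at both days, and the change at day 6 exceeded that at day 0 by 0.47 ± 0.06 (edgeR adjusted p = 1.83e-09; 3 of the 6 genes and 41.7% of tested genes called). The values between were 375 ± 6.33 CPM in IAA and 224 ± 14.0 CPM in DMSO at day 2, and 317 ± 6.73 CPM in IAA and 186 ± 5.56 CPM in DMSO at day 4 (SD, n = 3 each). Within IAA, Cdh1 was lower at day 4 than at day 0 (-0.65 ± 0.04) and then higher at day 6 than at day 4 (0.25 ± 0.04, edgeR adjusted p = 8.18e-07). In DMSO it was lower at day 6 than at day 4 (-0.49 ± 0.04).

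Under BPK25, Cdh1 stood out at day 4. Its libraries had 389, 380 and 386 CPM in BPK25 and 192, 181 and 185 CPM in DMSO (1.05 ± 0.04, edgeR adjusted p = 4.18e-27). The change exceeded that at day 0 by 1.18 ± 0.06 (edgeR adjusted p = 2.23e-22; 5 of the 6 genes and 38.1% of tested genes called). That peak was gone at day 6, where it had 150, 156 and 150 CPM in BPK25 and 133, 126 and 138 CPM in DMSO (0.20 ± 0.04, edgeR adjusted p = 0.00189). Both differences exceeded the spread between libraries, but the change from day 4 to day 6 within BPK25 was -1.34 ± 0.04. At days 0 and 2 Cdh1 was slightly lower in BPK25, by -0.13 ± 0.04 and -0.25 ± 0.04. The day 0 value had an edgeR adjusted p of 0.0380 and lost its call in 5 of 6 fits without 1 library, in all but that without the third DMSO library, with log2 fold changes from -0.16 to -0.10.

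Cdh2 (ENSMUSG00000024304.14, chr18:16588877-16809246, minus strand) was below DMSO in IAA at day 0 and above it at days 2 and 4. At day 0 it had 7.53, 5.79 and 4.66 CPM in IAA and 9.82, 13.7 and 11.95 CPM in DMSO (-0.95 ± 0.17, edgeR adjusted p = 4.87e-06). At day 2 it had 21.1, 21.02 and 19.9 CPM in IAA and 12.3, 10.2 and 13.5 CPM in DMSO (0.76 ± 0.12), and at day 4 it had 45.4, 41.4 and 43.9 CPM in IAA and 23.9, 23.5 and 19.2 CPM in DMSO (0.95 ± 0.09, edgeR adjusted p = 6.55e-13). IAA and DMSO libraries did not overlap at any of these days. The difference between day 2 and day 0 was itself called, at 1.71 ± 0.20 (edgeR adjusted p = 1.18e-09). At day 6 the IAA and DMSO libraries overlapped, at 39.1 ± 4.99 CPM in IAA and 40.0 ± 1.99 CPM in DMSO (SD, n = 3 each; -0.03 ± 0.08). Both cadherin genes were thus above DMSO in IAA at days 2 and 4.

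Cdh2 was lower in BPK25 than in DMSO at day 4, the day on which Cdh1 was higher. Its libraries had 10.03, 14.6 and 12.1 CPM in BPK25 and 23.9, 23.5 and 19.2 CPM in DMSO (-0.91 ± 0.11, edgeR adjusted p = 2.50e-09), without overlap. By day 6 Cdh2 stood at 43.7 ± 1.64 CPM in BPK25 and 40.0 ± 1.99 CPM in DMSO (SD, n = 3 each) and was not called (0.12 ± 0.08). The rise within BPK25 between day 4 and day 6 was 1.87 ± 0.10 (edgeR adjusted p = 2.09e-21). Across all 12 groups, BPK25 at day 6, IAA at day 4, DMSO at day 6 and IAA at day 6 made up the top of the Cdh2 order and overlapped with their neighbours there, and IAA at day 0 was lowest.

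Per kb of exon, Cdh1 exceeded Cdh2 in each of the 36 libraries. At day 0 the geometric mean of that ratio was 40.2-fold in BPK25, 147-fold in IAA and 36.2-fold in DMSO. At day 6 it was 6.14-fold in BPK25, 17.0-fold in IAA and 5.82-fold in DMSO, so the balance moved towards Cdh2 in all 3 treatments without reaching parity. As the log2 ratio of Cdh2 to Cdh1, IAA minus DMSO was -2.02 at day 0, 0.05 at day 2, 0.21 at day 4 and -1.55 at day 6. BPK25 minus DMSO was -0.15, 0.24, -1.91 and -0.08 at the same days. The libraries did not overlap in IAA at days 0 and 6 and in BPK25 at days 2, 4 and 6, each with an exact permutation p of 0.1 (adjusted p = 0.229 over 16 comparisons). With labels permuted within days over 160000 arrangements, the mean difference was -0.83 for IAA (exact permutation p = 0.00476, adjusted p = 0.0191 over 4 tests) and -0.47 for BPK25 (exact permutation p = 0.0525, adjusted p = 0.105). These means join days on which the difference had opposite signs.

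**Figure D3:**
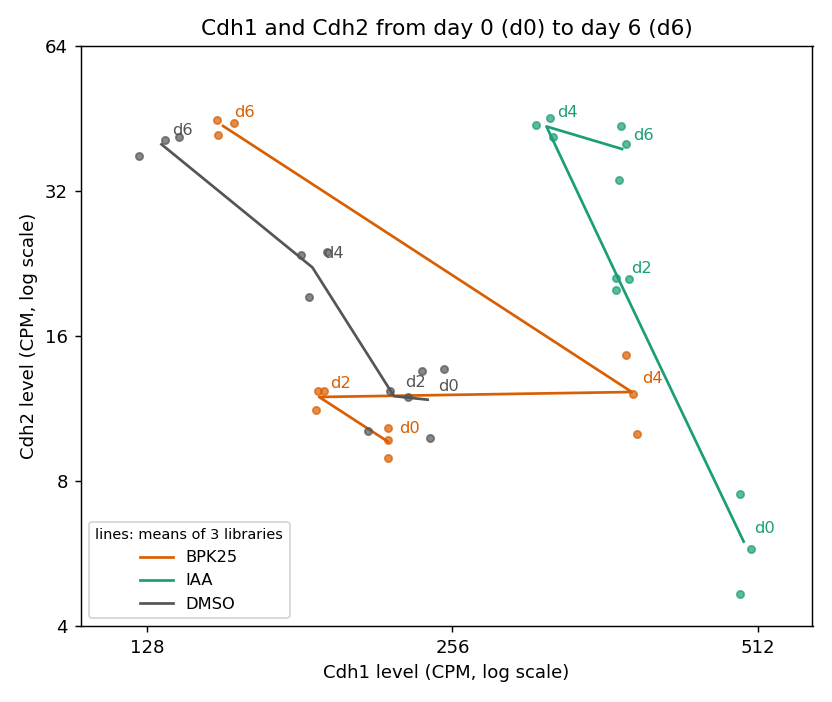
Cdh2 level against Cdh1 level in CPM, both on log axes, with 1 point per library and lines through the means of 3 libraries from day 0 to day 6. DMSO moves to lower Cdh1 and higher Cdh2, IAA moves up at Cdh1 levels above 300 CPM, and BPK25 moves to a Cdh1 mean of 385 CPM at day 4 before it ends near DMSO at day 6.

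Set directly against each other, BPK25 and IAA differed in Cdh1 at all 4 days, with Cdh1 lower in BPK25 at days 0, 2 and 6 and higher at day 4. At day 0, 3 of the 6 genes were higher in BPK25 than in IAA (24.8% of tested genes) and 2 lower (23.1%), with 47.9% called. At day 2, 3 were higher (29.2%) and 2 lower (28.4%), with 57.5% called. At day 4, 3 were higher (27.2%) and 1 lower (27.1%), with 54.3% called, and at day 6, 2 were higher (27.7%) and 1 lower (28.8%), with 56.6% called. On day 2, Otx2 was higher in BPK25 by 1.56 ± 0.15 and Zic5 by 1.46 ± 0.09, and Cdh1 lower by -0.99 ± 0.04. On day 4, Cdh2 was lower in BPK25 by -1.86 ± 0.10 and Pou3f1 higher by 1.38 ± 0.30 (edgeR adjusted p = 9.98e-05). Otx2 (0.49 ± 0.28) and Zic2 (0.10 ± 0.16) were not called between the treatments at day 4.

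Of 16 other genes of the formative and primed states, 10 fell and 1 rose between day 0 and day 6 in DMSO, where 29.5% of all tested genes fell and 33.2% rose, with a median log2 fold change of -1.09 beside 0.03 for all tested genes. At day 6, IAA had 3 of the 16 higher (30.6% of all tested genes were), 8 lower (30%) and 5 not called, with a median of -0.36 against 0.00 for all. Dnmt3b, a DNA methyltransferase raised in the primed state, was lower there (-1.12 ± 0.06), as was the ETS factor gene Etv5 (-1.28 ± 0.16), whereas Dnmt3a rose (0.47 ± 0.04). BPK25 at day 4 had 5 of the 16 higher and 5 lower (median 0.08, against -0.01 for all), near the 26.2% higher and 26.8% lower of all tested genes. The higher ones included Dusp6, a feedback phosphatase of ERK signalling (1.59 ± 0.07), and the lower ones Dnmt3b (-1.08 ± 0.05), Sall2 (-1.02 ± 0.10) and Tead2 (-0.47 ± 0.06). In BPK25 at day 6, edgeR called 0 of the 16, where it called 4.01% of all tested genes higher and 3.08% lower. A list of 16 is too short to set that count apart from these shares.

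Among 5 tested family relatives of the transcription factors, 3 were higher and 1 lower in IAA at day 6, where 30.6% and 30% of all tested genes were. Pou2f1 (Oct1), a broadly expressed POU factor, had 95.6 ± 2.81 CPM in IAA and 57.1 ± 0.516 CPM in DMSO (0.74 ± 0.06). Pou3f3 had 7.13 ± 0.425 CPM in IAA and 3.81 ± 1.25 CPM in DMSO (0.89 ± 0.17), while Pou3f1 itself was not called (-0.60 ± 0.41).

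Many epithelial genes rose in BPK25 at day 4 and in IAA at days 4 and 6. Under IAA at day 6, 13 of 16 tested rose, 0 fell and 3 were not called, with a median of 1.18 beside 0.00 for all genes, and the call rate in the higher direction was 30.6% over all tested genes. Krt18, a keratin of simple epithelia, had 260 ± 6.27 CPM in IAA and 61.8 ± 2.21 CPM in DMSO (2.08 ± 0.05). Its partner Krt8 rose (1.14 ± 0.05), as did the tight junction claudins Cldn6 (1.94 ± 0.08) and Cldn7 (2.82 ± 0.12). In BPK25 at day 4, 11 of the 16 rose, 1 fell and 4 were not called, with a median of 0.96 beside -0.01 for all genes and 26.2% of tested genes higher. Cldn4, a tight junction claudin, had 24.9 ± 0.745 CPM in BPK25 and 5.73 ± 0.684 CPM in DMSO (SD, n = 3 each), and Krt18 (1.86 ± 0.07), Krt8 (1.21 ± 0.06) and Epcam, an adhesion molecule of epithelia (0.80 ± 0.06), rose. At day 0 under IAA, where Cdh1 was also raised, 6 of the 16 rose and 1 fell (median 0.19, with 21.3% of tested genes higher), among them the splicing regulator Esrp1 (1.36 ± 0.15) and the junction gene Tjp3, at 23.0 ± 1.13 CPM in IAA and 7.63 ± 0.275 CPM in DMSO. IAA had 7 of the 16 higher and 3 lower at day 2 (median 0.31, with 27.5% of tested genes higher) and 10 higher and 0 lower at day 4 (median 0.55, with 25.9% higher). In BPK25 at day 6, 3 of the 16 rose and 0 fell (median 0.17, with 4.01% higher).

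Repressors of Cdh1 and mesenchymal genes moved in both directions. In BPK25 at day 4, 2 of 7 tested rose and 5 fell (median -0.53), where 26.2% of all tested genes rose and 26.8% fell. The repressors Zeb1 (-0.53 ± 0.06) and Zeb2 (-0.90 ± 0.12) and the filament gene Vim (-0.38 ± 0.05) were lower, and Fn1, encoding fibronectin, higher (0.55 ± 0.04). At day 0 under IAA, Zeb1 (-0.50 ± 0.06) and Zeb2 (-1.12 ± 0.16) were lower as well, with 1 of the 7 higher and 3 lower (median -0.21; 21.3% of all tested genes higher and 23.2% lower). At day 6 under IAA, where Cdh1 was raised by 1.51, 3 of the 7 rose, 1 fell and 3 were not called (median 0.07; 30.6% of all tested genes rose and 30% fell). Snai2 had 7.68 ± 1.08 CPM in IAA and 1.89 ± 0.649 CPM in DMSO (2.02 ± 0.19), Twist1 rose (1.67 ± 0.15) and Zeb2 rose (0.76 ± 0.09), all 3 of them described as repressors of Cdh1, while Vim fell (-0.43 ± 0.04).

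**Figure D4:**
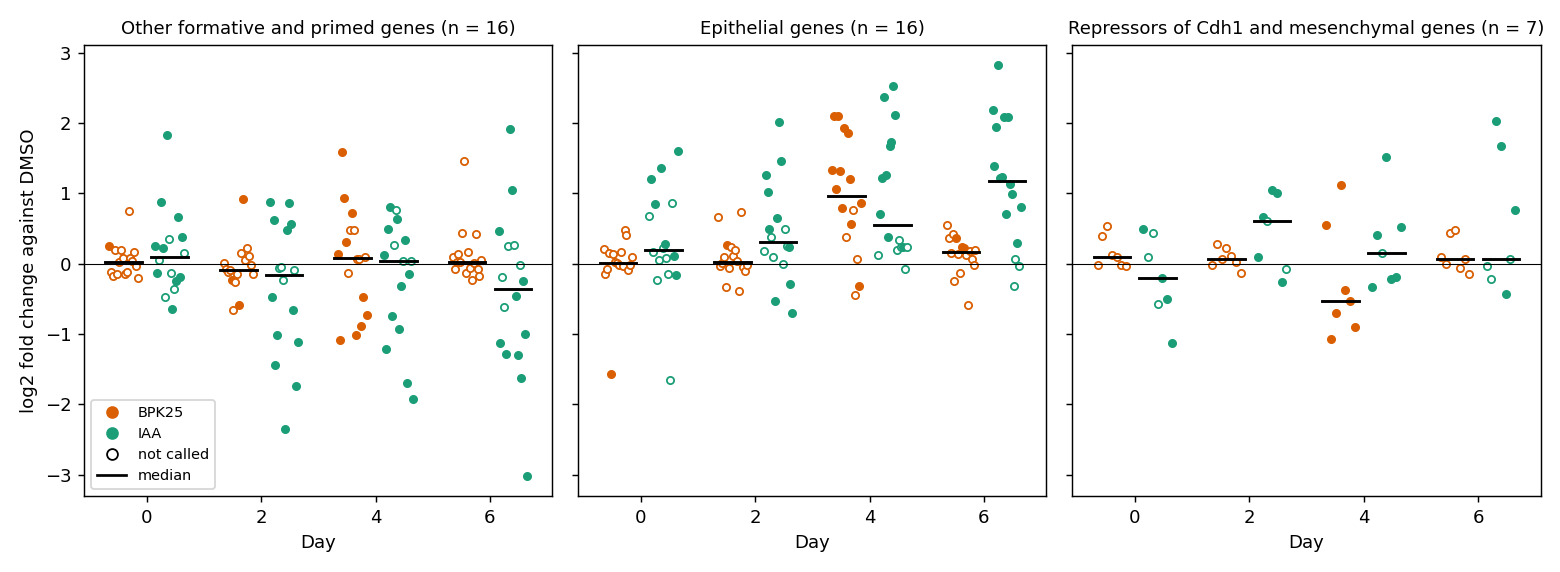
Log2 fold changes against DMSO of the same day for the 16 other formative and primed genes, the 16 epithelial genes and the 7 repressors of Cdh1 and mesenchymal genes, with 1 point per gene, filled where called, BPK25 left of IAA at each day, and a bar for the list's median. The epithelial medians are highest at day 4 in BPK25 (0.96) and day 6 in IAA (1.18), and the formative and primed medians lie between -0.36 and 0.09 in these comparisons.

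Of 11 other cadherin and catenin genes, BPK25 raised 2 and lowered 2 at day 4, and 7 were not called. The shares over all tested genes were 26.2% raised and 26.8% lowered, and a list of 11 is too short to set its counts apart from these. Cdh3, the P-cadherin gene, had 12.04 ± 1.09 CPM in BPK25 and 1.54 ± 0.428 CPM in DMSO (2.93 ± 0.21), and the endothelial cadherin gene Cdh5 was lower (-1.73 ± 0.18). Under IAA at day 6, 5 of the 11 were higher and 5 lower, where 30.6% and 30% of all tested genes were. Cdh3 had 13.8 ± 1.55 CPM in IAA and 2.66 ± 0.168 CPM in DMSO there (2.39 ± 0.17), and Cdh4, the R-cadherin gene, had 1.85 ± 0.707 CPM in IAA and 13.4 ± 1.82 CPM in DMSO (-2.81 ± 0.19). At day 0 under IAA, Cdh3 was raised too (1.43 ± 0.14) and Ctnnb1, encoding the β-catenin that binds E-cadherin, was slightly lower (-0.18 ± 0.04).

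Naive and core pluripotency genes changed direction under IAA on the same days as Otx2. At day 0, 11 of 15 rose and 2 fell (median 0.42; 21.3% of all tested genes rose and 23.2% fell), with Klf4 (1.14 ± 0.05), Tfcp2l1 (1.01 ± 0.05), Zfp42 (0.93 ± 0.05) and Esrrb (0.61 ± 0.05) higher in IAA. At day 2, 0 rose and 14 fell (median -0.98; 27.5% of all tested genes rose and 27.9% fell), with Nr0b1 (-2.78 ± 0.11), Nanog (-1.19 ± 0.06), Esrrb (-1.04 ± 0.05) and Sox2 (-0.98 ± 0.05) lower. BPK25 at day 4 had 4 of the 15 higher and 9 lower (median -0.45; 26.2% of all tested genes higher and 26.8% lower).

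Marker lists of other cell types are given for 3 comparisons in which Cdh1 rose, and only as sums for IAA at day 4. Cdh1 also rose in IAA at day 2 and in BPK25 at day 6, which are not described here. In IAA at day 4, endoderm markers had a mean sum of 1733 CPM, against 793 CPM in DMSO. The sums were 153 and 37.5 CPM for primitive streak and mesoderm markers and 435 and 258 CPM for fibroblast feeder markers. Neural markers summed to 244 CPM in IAA and 170 CPM in DMSO at that day. The shares of all tested genes called higher and lower were 26.2% and 26.8% in BPK25 at day 4, 30.6% and 30% in IAA at day 6, and 21.3% and 23.2% in IAA at day 0. In BPK25 at day 4, 4 of 12 tested endoderm markers rose and 7 fell, and their sum with the untested one ran from 817 to 824 CPM in BPK25 and from 779 to 805 CPM in DMSO. Afp, an early endoderm and liver protein, had 24.7 ± 2.11 CPM in BPK25 and 0.901 ± 0.149 CPM in DMSO at that day (4.76 ± 0.19), while the endoderm factor gene Gata4 was lower, at 10.4 ± 0.256 CPM in BPK25 and 29.7 ± 0.912 CPM in DMSO (-1.51 ± 0.10). Under IAA at day 6, 4 endoderm markers were higher and 6 lower, with sums from 1368 to 1429 CPM in IAA and from 1176 to 1206 CPM in DMSO, and Cer1 was at 0 in IAA. Apoa1, an apolipoprotein of visceral endoderm, had 77.2 ± 2.98 CPM in IAA and 6.29 ± 0.227 CPM in DMSO there (3.62 ± 0.10), while Sox17 was lower (-0.79 ± 0.07), as was Gata4 (-0.67 ± 0.07), both picked after their values were seen as markers that fell. At day 0, where Cdh1 was higher in IAA as well, 0 endoderm markers were higher and 8 lower. Their sums ran from 558 to 564 CPM in IAA and from 837 to 870 CPM in DMSO, with Cer1 at 0 in both.

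Fibroblast feeder markers summed to between 278 and 283 CPM in BPK25 and between 250 and 264 CPM in DMSO at day 4, with 4 of 15 higher and 6 lower in BPK25 and the defining markers Lum and Dcn at 0 there. Tagln, a smooth muscle and fibroblast gene, had 99.7 ± 6.07 CPM in BPK25 and 4.90 ± 1.34 CPM in DMSO. The higher sum in BPK25 rests on it: without Tagln, left out after its values were seen, the other 14 summed to between 176 and 185 CPM in BPK25 and between 246 and 258 CPM in DMSO. At day 6 the sum ran from 688 to 704 CPM in IAA and from 407 to 416 CPM in DMSO, with 10 of 15 higher and 4 lower, and at day 0 from 144 to 156 CPM in IAA and from 185 to 187 CPM in DMSO, with 1 higher and 3 lower and Lum at 0 in IAA. For BPK25 at day 4, 2 of 9 tested primitive streak and mesoderm markers rose and 3 fell, shares near those of all tested genes, with sums from 37.5 to 41.0 CPM in BPK25 and from 35.3 to 39.3 CPM in DMSO. IAA had 8 of the 9 higher at day 6, with sums from 119 to 131 CPM in IAA and from 60.0 to 62.9 CPM in DMSO, and Mesp1 at 0 in both. Likewise 4 of 14 tested neural markers rose and 7 fell in BPK25 at day 4, with sums from 159 to 164 CPM in BPK25 and from 167 to 176 CPM in DMSO and Hes5 at 0 in BPK25. Under IAA at day 6, 3 neural markers were higher and 7 lower, with a median log2 fold change of -0.38 over those tested. Their sum with the untested ones was nonetheless higher, from 279 to 297 CPM in IAA and from 205 to 209 CPM in DMSO. At day 0 under IAA, 6 of the 14 neural markers were higher and 3 lower, with a median of -0.165. Neural sums at day 0 ran from 236 to 243 CPM in IAA and from 183 to 188 CPM in DMSO, with Neurog1 at 0 in both. Of the 9 primitive streak and mesoderm markers, 3 were higher and 1 lower in IAA at day 0. Their sums ran from 31.98 to 33.46 CPM in IAA and from 19.1 to 24.7 CPM in DMSO, with Mixl1 at 0 in DMSO. The part of such cells in the cadherin and epithelial values was not tested.

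Over the 12 group means, Zic2 and Zic5 followed each other (Pearson r = 0.965 on log2 CPM), and Otx2 followed Zic5 (r = 0.926) and Zic2 (r = 0.923). Otx2 and Cdh2 ran opposite (r = -0.832), while Cdh1 showed little relation to Otx2 (r = -0.045) and was weakly opposed to Cdh2 (r = -0.353). The 12 points share their days and treatments, so these values describe and are not tests. Of 11636 other genes compared, 740 reached r above 0.9 with Otx2, 652 with Zic2, 736 with Zic5, 473 with Cdh2 and 69 with Cdh1, against 4 of 11637 with Pou3f1. The closest by this measure were Zyg11a, Txlng and Xrcc6 for Otx2 (up to 0.990), Psma8, Pym1 and Rpa2 for Zic2 (up to 0.995) and Smtnl1, Nme2 and Ppdpf for Zic5 (up to 0.988). Zfp277, Ankrd28 and Prdx6 were closest to Cdh1 (up to 0.976), and Sh3pxd2b, Clcn5 and Trp53bp1 to Cdh2 (up to 0.981). For Pou3f1 they were Lat, Mthfsl and Cyp11a1 (up to 0.916), and over the 36 single libraries these fell to 0.690, 0.709 and 0.798.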

How the data were processed

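Per the labels' protocols, RNA from mouse embryonic stem cells was made into libraries with a SMARTer mRNA-seq kit. The submitters' processing notes name HISAT2 2.1.0, featureCounts 2.0.1, FastQC 0.11.7 and DESeq2 and the mm10 build; the sources used here give no strand setting, annotation or filter. The counts that the authors deposited are whole reads per gene in 36 columns, 1 for each library, next to each gene's ID, name and type. Groups came from the treatment and time labels, and each column carried the title of 1 library. GENCODE M21 on GRCm38, used for positions and exon length, matched 54587 of 55335 gene IDs (98.6%). No coordinates were converted.

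Everything else was computed here with R 4.3.3 and edgeR 4.0.16. With a minimum count of 10 and a minimum total of 15, filterByExpr kept 17394 genes, TMM gave scaling factors, and all 36 libraries entered 1 fit of 12 groups (glmQLFit, glmQLFTest, two-sided), which share an estimate of the spread (common biological coefficient of variation 3.86%). The standard error is the size of the log2 fold change over the square root of F. Joint tests asked whether an effect differed between days. Ratios within a library added 0.5 counts to each gene and used exact two-sided permutation tests over libraries. Within groups, the counts of all 36 library pairs lay further apart than sampling noise (chi-square over its degrees of freedom 1.381 to 3.066). Each library was counted as 1 sample, though such a spread cannot show that libraries came from separate cultures. The alternatives were DESeq2 1.42.0, RLE size factors, a replicate term in the fit, only 6 or 9 libraries, 1 library left out, and either no filter or at least 1 CPM in 3 libraries.

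The 6 genes and the lists were chosen with earlier results of these data known. Named list genes were the up to 4 with the smallest p in a described comparison, with at least 5 CPM in 1 group and no overlap of libraries. Likeness took the 3 highest correlations among genes with at least 5 CPM in 1 group, without predicted or clone names. Not all such genes are described.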

Additional observations from a re-analysis of the deposited data

Results flagged for a closer look

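For each of the 6 genes, the effect of a treatment against DMSO differed between days 0, 2, 4 and 6 by edgeR's joint test of the interaction, which called 47.1% of all tested genes for BPK25 and 70.1% for IAA. For Cdh1 the adjusted p was 1.64e-24 for BPK25, with log2 fold changes of -0.13, -0.25, 1.05 and 0.20 over the days, and 8.65e-17 for IAA, with 1.03, 0.74, 0.77 and 1.51. For Cdh2 it was 2.60e-07 for BPK25 (-0.29, -0.02, -0.91 and 0.12) and 5.44e-13 for IAA (-0.95, 0.76, 0.95 and -0.03). Otx2 gave 0.0111 for BPK25 (-0.38, -0.27, -1.23 and -0.32) and 7.72e-17 for IAA (0.66, -1.83, -1.72 and -2.19). The Otx2 value for BPK25 became 0.0813 without the third BPK25 library of day 4 and 0.0519 without the third DMSO library of day 4.

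Zic2 gave 1.85e-06 for BPK25 (-0.08, -0.09, -1.18 and -0.25) and 0.0263 for IAA (-0.79, -1.22, -1.28 and -1.26). The Zic2 value for IAA rested on single libraries of day 0: it was 0.0567 without the second DMSO library, 0.0503 without the third DMSO library, 0.0872 without the second IAA library and 0.0570 without the third IAA library. Zic5 gave 3.96e-05 for BPK25 (-0.07, -0.37, -0.87 and -0.28) and 7.25e-11 for IAA (-0.74, -1.83, -1.33 and -0.56). Pou3f1 gave 0.00502 for BPK25 (0.06, 1.24, 0.58 and -0.82) and 0.00201 for IAA (-0.19, 1.08, -0.79 and -0.60), on 2 to 32 counts a library.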

How the results depend on the processing

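No called value changed sign under any alternative; 26 uncalled values did and stayed uncalled. Against DMSO, calls were lost at 3 places. For Cdh1 in BPK25 at day 0 (-0.13), they were lost with no filter (-0.11), with only the 6 libraries compared (-0.13) and with only the 9 of that day (-0.12), and without 1 library the value ran from -0.16 to -0.10. For Otx2 in BPK25 at day 0 (-0.38), they were lost with no filter (-0.36) and RLE size factors (-0.38), and the range without 1 library was -0.42 to -0.32; at day 2 that range was -0.41 to -0.19. For Pou3f1 in IAA at day 4 (-0.79), they were lost with DESeq2 (-0.81), no filter (-0.77), only 6 libraries (-0.79) and only 9 (-0.79), with -1.38 to -0.52 without 1 library. DESeq2 gave no adjusted p in 13 cases, 7 of them of Pou3f1, including Pou3f1 in BPK25 at day 2 and Otx2 in BPK25 at day 0, which it therefore neither calls nor loses. The count of genes lower in BPK25 at day 0 (2) was 0 with no filter and 1 with RLE factors, 6 libraries or 9. Same-numbered libraries of a treatment and DMSO deviated together at correlations of -0.125 to 0.12, so the numbers do not pair them; a replicate block changed no call against DMSO (Cdh1 in IAA at day 6 1.51), and moved 2 calls between days, Zic2 in IAA and Pou3f1 in DMSO at day 6 against day 4, to adjusted p of 0.0525 and 0.0483. Between days, calls were also lost for Cdh2 in BPK25 at day 4 against day 0 (RLE factors, 0.0502; 6 libraries, 0.0520) and Zic2 in IAA at day 6 against day 4 (RLE factors, 0.0512). Of changes in the IAA effect, that of Pou3f1 at day 2 against day 0 was lost with DESeq2 (0.0555) and no filter (0.0569), and that of Zic2 at day 6 against day 0 was gained with no filter (0.0178). Pou3f1 is limited by depth at 2 to 32 counts a library.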
